A study of Homo sapiens with 4 samples.

Results

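The genes described here are 59 members of the Wnt, Notch and Hedgehog signalling pathways, chosen by gene symbol among the 14911 gene names counted in an m6A-seq experiment. Of the members, 35 belong to the Wnt pathway, 15 to the Notch pathway and 9 to the Hedgehog pathway. The experiment compared irradiated HEK293T cells, a line derived from human embryonic kidney that expresses SV40 large T antigen, with and without knockdown of ALKBH5, an enzyme that removes the methyl group of N6-methyladenosine (m6A) from RNA. Both populations received X-rays (10 Gy in the study's methods) and carried a lentiviral short hairpin RNA (shRNA) under puromycin selection. The control shRNA population is called shCTL and the population with an shRNA against ALKBH5 is called shA5. Whether each population was a pool or a clone of infected cells, and the time of harvest for these libraries, are not given in the sources used here. No population without X-rays was analysed here.

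In m6A-seq, poly(A) RNA is broken into short fragments, an m6A antibody precipitates the fragments that carry the mark (m6A-IP), and fragmented RNA from before that step is sequenced as the input. There was 1 library per group, an input and an m6A-IP for each of shCTL and shA5. The difference between groups therefore has no replicate check, and no test was made. Every interval given below for a gene is a 95% interval for counting error only. Reads are not independent molecules, which these intervals leave out. For shCTL, 2237819 input and 3944402 m6A-IP counts were available, and for shA5, 1311390 and 3148119. The members took 0.602% of the input and 0.771% of the m6A-IP counts of shCTL, and 0.531% and 0.741% of those of shA5.

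The pathways are the main routes by which neighbouring cells instruct each other during development. Wnt proteins are lipid-modified ligands that bind Frizzled receptors with the co-receptors LRP5 and LRP6, recruit Dishevelled, and stop a destruction complex of Axin, APC and GSK3 from marking beta-catenin for degradation, so that beta-catenin can act with TCF and LEF factors in the nucleus. Notch receptors are cut when they bind Delta or Jagged ligands on a neighbouring cell, and the released intracellular part joins RBPJ and Mastermind proteins on target genes such as HEY1. Hedgehog ligands bind Patched, which releases Smoothened from inhibition and turns GLI factors, held back by SUFU, towards activation.

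ALKBH5 itself had 486 input and 1432 m6A-IP counts in shCTL, and 145 input and 589 m6A-IP counts in shA5. Its input level was 217 counts per 1000000 counts of the library (CPM) in shCTL and 111 CPM in shA5, a log2 difference of -0.97 (interval -1.25 to -0.70), so the targeted gene was lower in the library labelled as the knockdown. The ALKBH5 gene lies at chr17:18183078-18209954 (hg38, plus strand). The study lists 2 shRNAs against ALKBH5, and which of them was used for these libraries is not given in the sources used here. Both targets are shown because they define the knockdown, and each matches the ALKBH5 mRNA (ENST00000399138) over 21 bases. The target of shALKBH5-1 lies in exon 4, in the 3′ UTR (chr17:18208616-18208636, plus strand), and that of shALKBH5-2 in the coding part, where exons 2 and 3 join (chr17:18195027-18206826 with the intron, plus strand).
shALKBH5-1: gaaaggctgttggcatcaata
shALKBH5-2: cctcaggaagacaagattaga

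The cell type labels were checked on marker genes. Of the 6 genes listed for HEK293T, LHX1 (117 and 277 counts for input and m6A-IP of shCTL, 35 and 166 for those of shA5) and NEFL (179, 555, 83 and 308) were well counted. NEFM and INA had at most 24 counts in any library, PAX2 had 1 count in the shCTL m6A-IP and 0 in the other libraries, and PAX8 was not listed. Among the genes of other cell types, PTPRC, CD3E, HBB, ALB, DCN and GFAP were not listed, PECAM1 had 2 counts in the shA5 m6A-IP and 0 elsewhere, and DES had 10, 15, 3 and 8. COL1A1, a collagen gene of fibroblasts, had 401, 578, 150 and 246 counts. Its input level was lower in shA5 (log2 difference -0.65, interval -0.93 to -0.37), as was that of LHX1 (-0.96, interval -1.56 to -0.41), and whether these differences have a part in the differences of the members was not tested. In bulk RNA, fewer cells with a transcript and less of it per cell cannot be told apart.

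All 59 members were listed in at least 1 library. With a minimum mean of 50 counts over the 4 libraries, 34 members were kept (19 Wnt, 10 Notch and 5 Hedgehog) among 5320 genes. The other 25 members were under the minimum, 14 of them with a mean under 10 counts. The members nearest the minimum were WNT6 (mean 57.75) and ZNRF3 (63.25) inside it, and JAG2 (49.5), GLI3 (41.5) and AXIN1 (39.5) outside it. WNT6 and WNT3 passed through their m6A-IP counts, since their mean over the inputs was 18.5 and 42 counts, and values over the kept members do not describe all members.

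Several core components of the pathways were hardly counted. CTNNB1, which encodes beta-catenin, had 22 input and 24 m6A-IP counts in shCTL, and 9 input and 17 m6A-IP counts in shA5. RBPJ, the DNA-binding partner of Notch, had 8, 21, 13 and 12 counts in the same order, and APC had 8, 5, 3 and 5. The annotation gives 43 coding transcripts for CTNNB1, 29 for RBPJ and 6 for APC, and counting was done per transcript with settings for shared reads that are not given in the sources used here. All 11 members with 1 annotated coding transcript were kept, against 10 of 15 members with 2 to 3, 10 of 20 with 4 to 7 and 3 of 13 with 8 or more (GSK3B with 24, GSK3A with 16 and PTCH1 with 14). Over all listed genes 1327 of 2652 were kept with 1 coding transcript, and the share kept was 38.7% with 2 to 3 coding transcripts, 30.7% with 4 to 7 and 26.7% with 8 or more. The median number of coding transcripts was 2 for kept members and 7 for the others. A low count of a member is not read here as a low level of its mRNA.

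**Figure D1:**
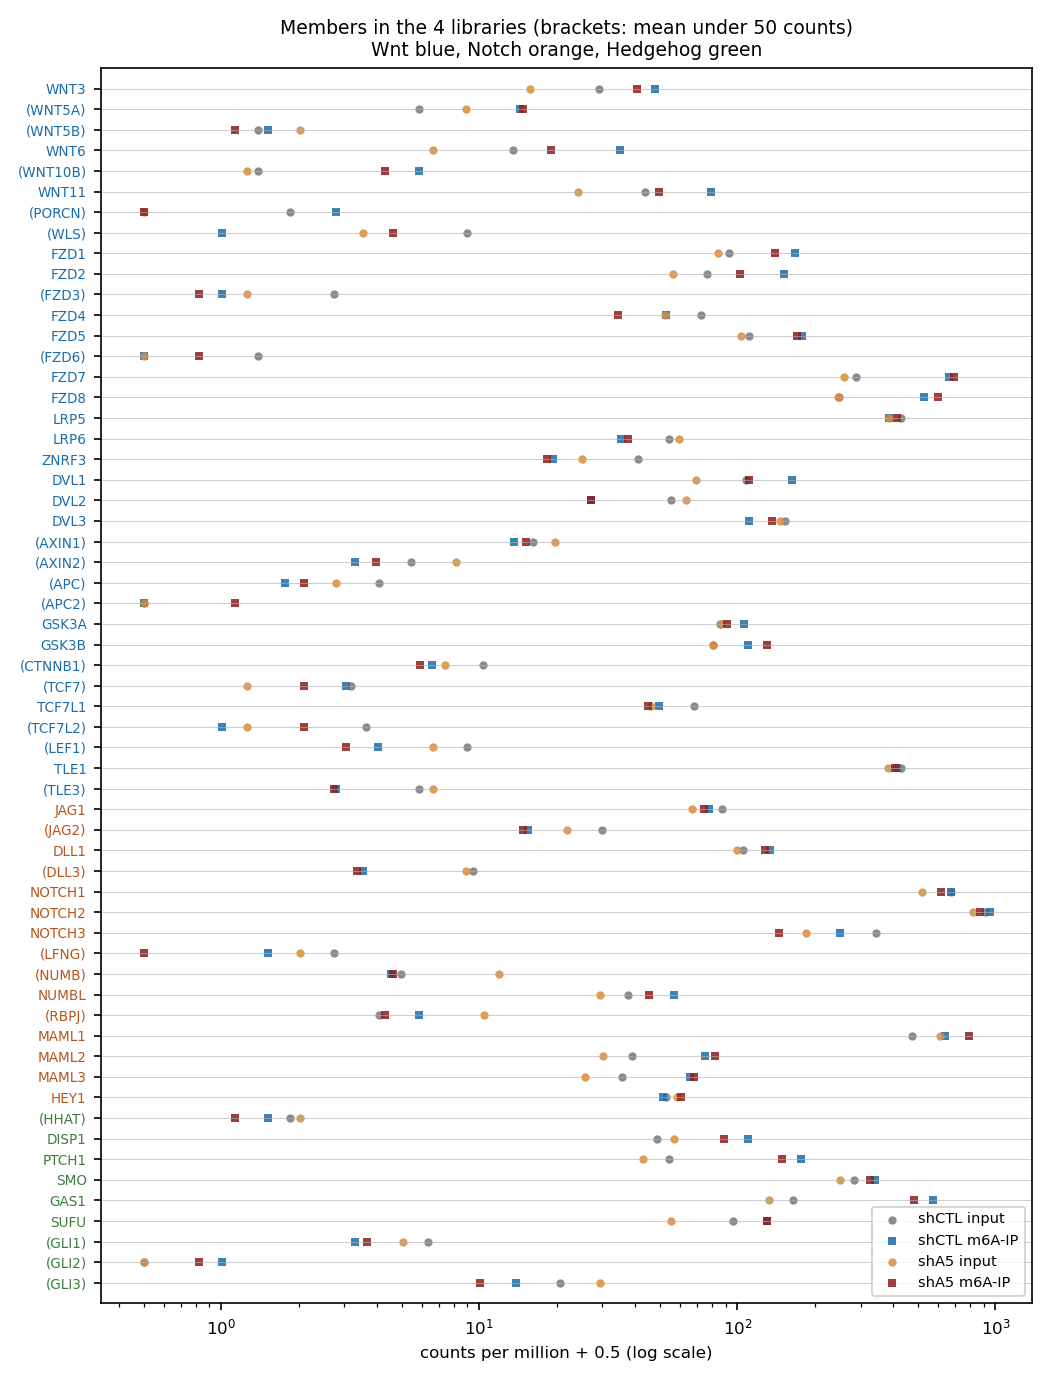
Each row is 1 of the 59 members and each point its level in 1 library, as CPM plus 0.5 on a log scale; grey and orange circles are the shCTL and shA5 inputs, blue and red squares the shCTL and shA5 m6A-IP. Names in brackets are the 25 members with a mean under 50 counts. NOTCH2 has the most counts of all members (mean 2401), and GAS1 and PTCH1 show both m6A-IP points to the right of both input points.

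To compare members with each other, counts were divided by transcript length. On this scale (CPM per kb of transcript, in the shCTL input) the highest kept members were TLE1, a nuclear corepressor of the Wnt pathway (104), the Wnt co-receptor LRP5 (83.3), the Notch coactivator MAML1 (82.5), NOTCH2 (79.5), the Hedgehog transducer SMO (71.0) and NOTCH1 (70.1). The lowest kept members were MAML3 (5.16), LRP6 (5.23), MAML2 (5.40), PTCH1 (5.85) and ZNRF3 (5.92). In the shA5 input, MAML1 stood highest (106 CPM per kb) and TLE1 next (92.4).

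m6A is laid down mainly at an adenosine within the letters GGAC, often GGACT, and many m6A sites lie near the stop codon. The mRNA windows below show, for the 4 members with the highest m6A enrichment in shCTL, the GGACT nearest the stop codon with 10 bases on each side, GGACT in capitals. GAS1 is a membrane protein that binds Hedgehog ligands together with Patched; its window is in the coding part of its only exon, 235 bases before the stop codon (chr9:86945965-86945989, minus strand). PTCH1 is the Patched receptor; its window is in coding exon 23 of 24, 156 bases before the stop codon (chr9:95447056-95447080, minus strand). WNT6 is a Wnt ligand; its window is in coding exon 3 of 4, 568 bases before the stop codon (chr2:218871701-218871725, plus strand). FZD7 is a Frizzled receptor; its window is in the 3′ UTR, 348 bases after the stop codon (chr2:202036708-202036732, plus strand). The positions are of hg38 with Gencode v44, and a match is a description and not a measured m6A site.
GAS1: actacgatgaGGACTacgatgacga
PTCH1: cccccgagggGGACTctgcccaggc
WNT6: gcgacgacgtGGACTtcggggacga
FZD7: ggctgaacggGGACTgtgagcgatc

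These mRNAs hold few or many GGACT: 4 in GAS1, 9 in PTCH1, 2 in WNT6 and 4 in FZD7. The 4 members with the lowest enrichment hold 6 to 19, with 8 in ZNRF3, 6 in DVL2, 19 in LRP6 and 9 in NOTCH3. Within 200 bases on either side of the stop codon, GGACT was present in 14 of 33 kept members with such a window (42.4%), against 39.8% of all genes with one. It was present in 8 of 14 members with m6A enrichment of at least 1.5-fold in shCTL and in 6 of 19 of the others. All genes were not split in this way and the difference was not tested, so the split is not read as a trait of the members. The 14 include WNT3 and WNT6, which passed the minimum through their m6A-IP counts. GGAC alone was present in 27 of 33 members (81.8%) and in 82.3% of all genes.

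m6A enrichment was computed as the log2 ratio of m6A-IP CPM to input CPM, with 0.5 CPM added to each. In shCTL, 15 of 34 members (44.1%) had an m6A-IP level at least 1.5-fold above the input, against 22.5% of all 5320 genes, and 3 of 34 (DVL2, LRP6 and ZNRF3) were at least 1.5-fold below it, against 30.3% of all genes. In shA5 the counts were 17 of 34 above, against 24.3% of all genes, and 3 of 34 below (DVL2, FZD4 and LRP6), against 31.7%. The 15 members enriched in shCTL were enriched in shA5 too, where GSK3B and SUFU were added. The count in part follows from the minimum, which WNT3 and WNT6 passed through their m6A-IP counts. With a minimum mean of 50 counts over the inputs, chosen after the data were seen, 13 of 32 members were enriched in shCTL, against 19.1% of all genes, and 15 of 32 in shA5, against 20.8%. The median enrichment of the members was 0.43 in shCTL and 0.51 in shA5, and that of all genes was -0.11 and -0.096. It depends on the minimum: with a mean of 10 counts or more the members' median was 0.27 in shCTL and 0.16 in shA5. All genes were then at -0.25 in both. With no minimum the members' median was 0 and 0.16, and that of all genes -0.22 and -0.15. Median enrichment in shCTL was 1.18 over the 5 Hedgehog members, 0.45 over the 19 Wnt members and 0.21 over the 10 Notch members. With the relation to GC content removed, a check chosen after the data were seen, the median of the members was 0.20 in shCTL and 0.26 in shA5, and 13 members were at least 1.5-fold enriched in shCTL (against 20.9% of all genes) and 14 in shA5 (against 22.4%). DVL1, NUMBL and WNT6 were then no longer among the enriched in either population, and GSK3B was added in shCTL. The members at least 1.5-fold below the input were then DVL2, DVL3, NOTCH3, TCF7L1 and ZNRF3 in shCTL (against 29.6% of all genes) and DVL2 and NOTCH3 in shA5 (against 30.1%), without LRP6 and FZD4.

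**Figure D2:**
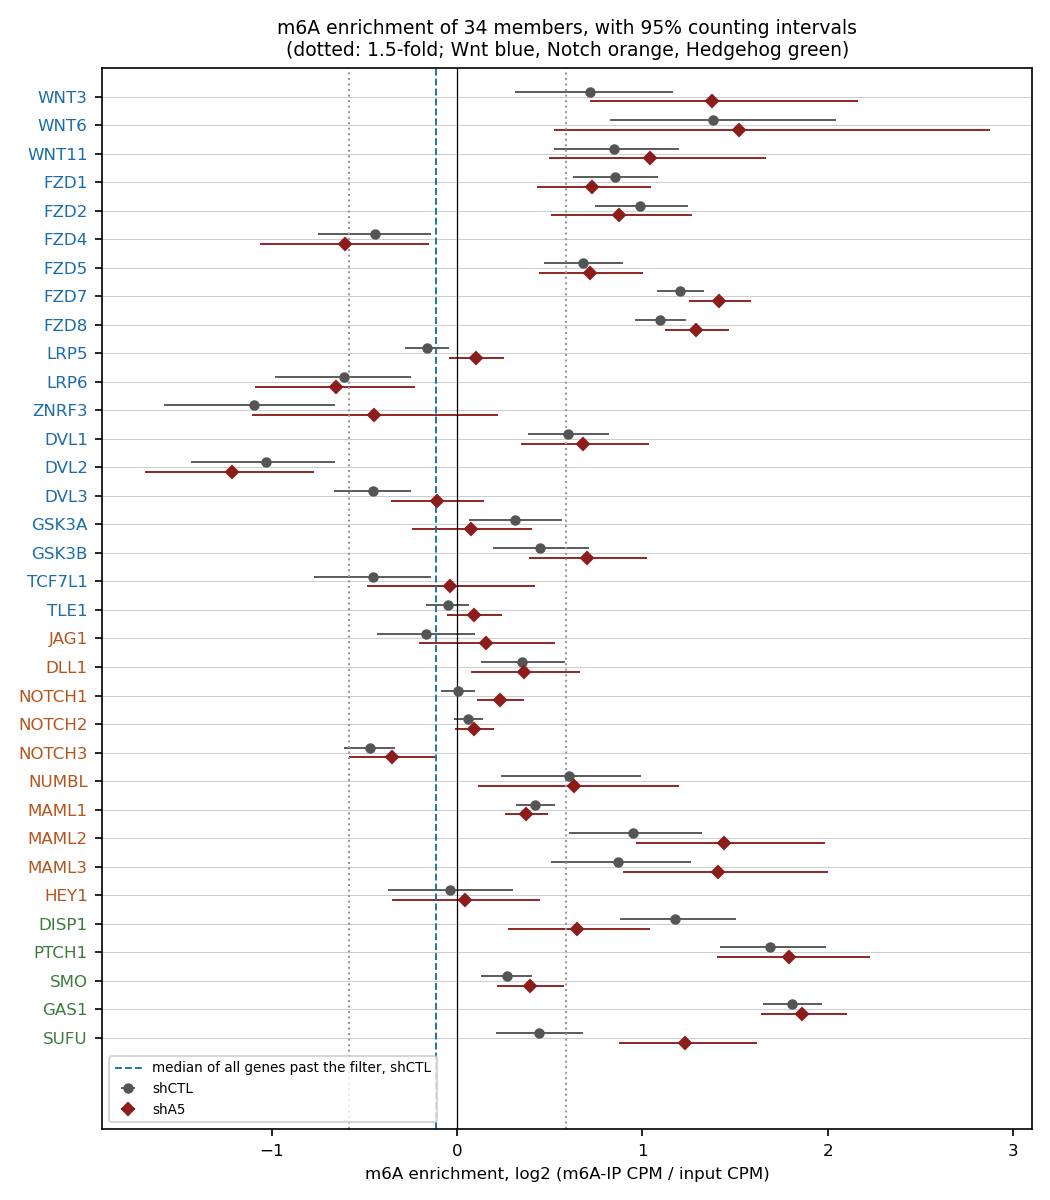
Each row is 1 of the 34 kept members; points are m6A enrichment (log2 of m6A-IP CPM over input CPM) in shCTL (circles) and shA5 (diamonds), bars the 95% counting intervals, dotted lines 1.5-fold and the dashed line the median of all genes in shCTL (-0.11). GAS1 and PTCH1 stand farthest to the right in both populations and DVL2 is on the left in both.

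Of the 3 kept Wnt ligands, WNT3 and WNT6 passed the minimum through their m6A-IP counts, which in part fixes that they appear enriched, and WNT11 passed it on the inputs too. WNT11 is a ligand known for beta-catenin-independent signalling. It was the most counted of them and had 97 input and 309 m6A-IP counts in shCTL, and 31 input and 155 m6A-IP counts in shA5. Its enrichment was 0.85 in shCTL (interval 0.52 to 1.20) and 1.04 in shA5 (0.49 to 1.66). WNT6 had 29, 136, 8 and 58 counts in the same order, an enrichment of 1.38 (0.83 to 2.04) and of 1.52 (0.52 to 2.87), where the 8 counts of the shA5 input leave a wide interval. With the relation to GC content removed, WNT6 was at 0.56 in shCTL and 0.56 in shA5, under 1.5-fold in both, so its place among the most enriched members depends on that choice. WNT3, a ligand of the beta-catenin branch, had 64, 187, 20 and 127 counts, and an enrichment of 0.72 (0.31 to 1.16) and 1.37 (0.72 to 2.16). Of the ligands under the minimum, WNT5A had 12, 55, 11 and 45 counts, WNT10B had 2, 21, 1 and 12, and WNT5B had at most 4. The 2 members needed to lipidate and carry Wnt ligands were under the minimum as well: PORCN, the acyltransferase, had 3, 9, 0 and 0 counts (0 counts allow up to 2.29 CPM in the shA5 input), and WLS, the carrier, had 19, 2, 4 and 13.

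The Frizzled receptors divided by gene. FZD7, the most counted, had 642 input and 2609 m6A-IP counts in shCTL, and 340 input and 2178 m6A-IP counts in shA5. Its m6A-IP level was thus above its input level in both populations, with an enrichment of 1.20 in shCTL (1.08 to 1.33) and 1.41 in shA5 (1.25 to 1.59). FZD1, FZD2, FZD5 and FZD8 had enrichments between 0.68 and 1.09 in shCTL and between 0.72 and 1.29 in shA5. FZD4, the receptor of the ligand norrin, was on the other side, with 160, 207, 68 and 107 counts. Its enrichment was -0.44 in shCTL (-0.75 to -0.14) and -0.60 in shA5 (-1.06 to -0.15). Of the 50-base windows of the FZD4 transcript, 18.3% lie opposite transcripts of PRSS23, and the strand setting of the counting is not given in the sources used here, so the FZD4 counts are uncertain. The counts of WNT11, DLL1, MAML2 and FZD8 are uncertain for the same reason. Of their windows 8.54%, 8.61%, 7.64% and 6.72%, in this order, lie opposite transcripts of other genes. FZD3 and FZD6 had at most 5 counts in any library. The co-receptors were not enriched: LRP5 had 965, 1519, 507 and 1308 counts and an enrichment of -0.16 and 0.10. LRP6 had 120, 138, 77 and 117 counts and an enrichment of -0.61 (-0.98 to -0.25) and -0.65 (-1.09 to -0.23). LRP6 was at -0.19 in shCTL and -0.16 in shA5 with the relation to GC content removed, and no longer 1.5-fold below the input in either. ZNRF3, a ubiquitin ligase that removes Frizzled from the cell surface, had 91, 74, 32 and 56 counts. Its enrichment was the lowest of the kept members in shCTL, at -1.10 (-1.58 to -0.66), and was -0.45 in shA5 (-1.11 to 0.22).

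The 3 Dishevelled genes, which relay the signal from Frizzled, differed from each other. DVL1 had 240 input and 641 m6A-IP counts in shCTL, and 90 input and 347 m6A-IP counts in shA5, and an enrichment of 0.60 (0.38 to 0.82) and 0.68 (0.35 to 1.03). DVL2 had 123, 105, 82 and 84 counts, and an enrichment of -1.03 (-1.44 to -0.66) and -1.21 (-1.69 to -0.77). DVL3 had 340, 437, 192 and 428 counts, and an enrichment of -0.45 (-0.66 to -0.25) and -0.11 (-0.36 to 0.15). The intervals of DVL1 and DVL2 did not overlap in either population. DVL1 has the more GC-rich mRNA (67.5% against 60.3%), and with the relation to GC content removed its enrichment was -0.049 in shCTL and -0.074 in shA5, so the sign of DVL1 depends on that choice.

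Of the destruction complex only the GSK3 kinases, which phosphorylate beta-catenin, were kept. GSK3B had 179 input and 431 m6A-IP counts in shCTL, and 105 input and 410 m6A-IP counts in shA5, with an enrichment of 0.45 (0.20 to 0.71) and 0.70 (0.39 to 1.03). GSK3A had 190, 416, 113 and 286 counts, with an enrichment of 0.31 (0.06 to 0.57) and 0.08 (-0.24 to 0.40). For GSK3A, 22.1% of the 50-base windows are shared with a transcript of another annotated gene on the same strand, so its counts are uncertain, and its most counted transcript alone had an enrichment of 0.54 in shA5. With the relation to GC content removed, GSK3A was at -0.0083 in shCTL and -0.28 in shA5. The scaffolds AXIN1 (35, 52, 25 and 46 counts) and AXIN2 (11, 11, 10 and 11) were under the minimum, as was APC2 with at most 2 counts in any library. Of the nuclear factors, TLE1 had 959, 1632, 501 and 1283 counts. Its enrichment of -0.05 (-0.17 to 0.07) and 0.09 (-0.06 to 0.25) placed it near 0 in both populations, and with the relation to GC content removed it was below 0 in both (-0.28 and -0.16). TCF7L1, a DNA-binding factor that represses Wnt targets, had 151, 194, 60 and 140 counts and an enrichment of -0.45 and -0.04. TCF7, TCF7L2, LEF1 and TLE3 had at most 19 counts in any library.

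The 3 Notch receptors were well counted, NOTCH2 the most of all members, and none was enriched by 1.5-fold in either population. NOTCH2 had 2036 input and 3745 m6A-IP counts in shCTL, and 1073 input and 2749 m6A-IP counts in shA5, and an enrichment of 0.06 (-0.02 to 0.14) and 0.09 (-0.01 to 0.20). Of its 50-base windows, 4.86% are shared with other genes, above all the partial copy NOTCH2NLA. NOTCH1 had 1500, 2653, 683 and 1928 counts, and an enrichment of 0.0049 and 0.23. NOTCH3 had 771, 981, 242 and 455 counts, and an enrichment of -0.47 (-0.61 to -0.33) and -0.35 (-0.58 to -0.12), below the input in both populations. With the relation to GC content removed, NOTCH3 was at -0.86 in shCTL and -0.79 in shA5, past 1.5-fold below the input in both. The ligand DLL1 had 234, 527, 130 and 402 counts and an enrichment of 0.35 (0.13 to 0.58) and 0.36 (0.08 to 0.66). With the relation to GC content removed, DLL1 was at 0.10 in shCTL, outside its counting interval. The ligand JAG1 had 194, 304, 87 and 233 counts and an enrichment of -0.17 and 0.16. JAG2 (66, 59, 28 and 45 counts) and DLL3 (20, 12, 11 and 9) were under the minimum.

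The Mastermind coactivators, which bind the Notch and RBPJ complex on DNA, differed in enrichment. MAML2 and MAML3 were at least 1.5-fold enriched in both populations, and MAML1 in neither. MAML1 had 1061 input and 2507 m6A-IP counts in shCTL, and 797 input and 2476 m6A-IP counts in shA5, and an enrichment of 0.42 (0.32 to 0.53) and 0.37 (0.26 to 0.49). With the relation to GC content removed, MAML1 was at 0.27 in shCTL and 0.20 in shA5, outside both counting intervals. MAML2 had 86, 294, 39 and 257 counts, and an enrichment of 0.95 (0.60 to 1.32) and 1.44 (0.97 to 1.98). MAML3 had 79, 256, 33 and 213 counts, and an enrichment of 0.87 (0.51 to 1.26) and 1.41 (0.89 to 2.0). In shA5 the intervals of MAML2 and MAML3 did not overlap that of MAML1. The target gene HEY1, a transcriptional repressor, had 117, 201, 76 and 188 counts and an enrichment of -0.04 and 0.04. NUMBL, a relative of the Notch inhibitor NUMB, had 83, 223, 38 and 142 counts, and an enrichment of 0.60 (0.24 to 0.99) and 0.63 (0.11 to 1.20). NUMB itself had 10, 16, 15 and 13 counts, and LFNG, a glycosyltransferase that modifies Notch, had at most 5.

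Of the Hedgehog receptors, GAS1 and PTCH1 held the highest values of the kept members, and SMO did not. GAS1 had 367 input and 2264 m6A-IP counts in shCTL, and 174 input and 1523 m6A-IP counts in shA5, and an enrichment of 1.80 (1.65 to 1.97) and 1.86 (1.64 to 2.10). PTCH1 had 121, 692, 56 and 469 counts, and an enrichment of 1.69 (1.42 to 1.99) and 1.79 (1.40 to 2.23). The m6A-IP level of both was more than 3-fold above the input in each population (GAS1 3.49 and 3.64, PTCH1 3.22 and 3.46). DISP1, which releases lipid-modified Hedgehog ligands from the cell, had 108, 433, 74 and 279 counts. Its enrichment was 1.18 in shCTL (0.88 to 1.5) and 0.65 in shA5 (0.28 to 1.04). SUFU had 214, 513, 72 and 407 counts, and an enrichment of 0.44 (0.21 to 0.68) and 1.23 (0.87 to 1.62). SMO had 632, 1341, 326 and 1029 counts, and an enrichment of 0.27 (0.13 to 0.41) and 0.39 (0.21 to 0.58), the lowest of the 5 kept Hedgehog members in both populations. The GLI factors were under the minimum, with 45, 53, 38 and 30 counts for GLI3, 13, 11, 6 and 10 for GLI1 and at most 2 in any library for GLI2, and so was HHAT, the enzyme that acylates Hedgehog ligands, with at most 4.

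Across the kept members, mRNAs with few exons had the higher enrichment. Spearman's rho between the number of exons and enrichment in shCTL was -0.60 over 34 members and -0.26 over 5292 genes with an annotated transcript; these are relations across genes of the same libraries, and genes are not independent replicates. Of the 590 genes with 1 or 2 exons the median enrichment was 0.80, and that of the 7 members among them (FZD1, FZD2, FZD4, FZD5, FZD7, FZD8 and GAS1) was 0.98. Of the 697 genes with 21 or more exons the median was -0.32, and that of the 7 members among them (LRP5, LRP6, JAG1, NOTCH1, NOTCH2, NOTCH3 and PTCH1) was -0.16. PTCH1, with 24 exons, was far above the other members of that class. Set against the median of genes with a like number of exons, 25 of 34 members were higher, and the others were FZD4, FZD5, HEY1, ZNRF3, DVL2, DVL3, TCF7L1, LRP6 and NOTCH3. The 25 include WNT3 (5 exons) and WNT6 (4 exons), which passed the minimum through their m6A-IP counts. This in part fixes their enrichment, and the relations to exon number were not computed without them. Exons per kb had a rho of -0.54 over the members and -0.28 over all genes, and the share of the mRNA in its longest exon one of 0.47 and 0.12, the same signs in both. The length of the 3′ UTR had a rho near 0 in both (-0.063 and -0.058). GC content had a rho of 0.36 with enrichment over all genes and of -0.0063 over the members, and GGACT per kb had a rho of 0.17 and -0.31. Whether these relations differ between members and all genes was not tested. The members' mRNAs held a median of 1.30 GGACT per kb, against 0.96 in all genes, at a median length of 4889 against 3590 bases.

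**Figure D3:**
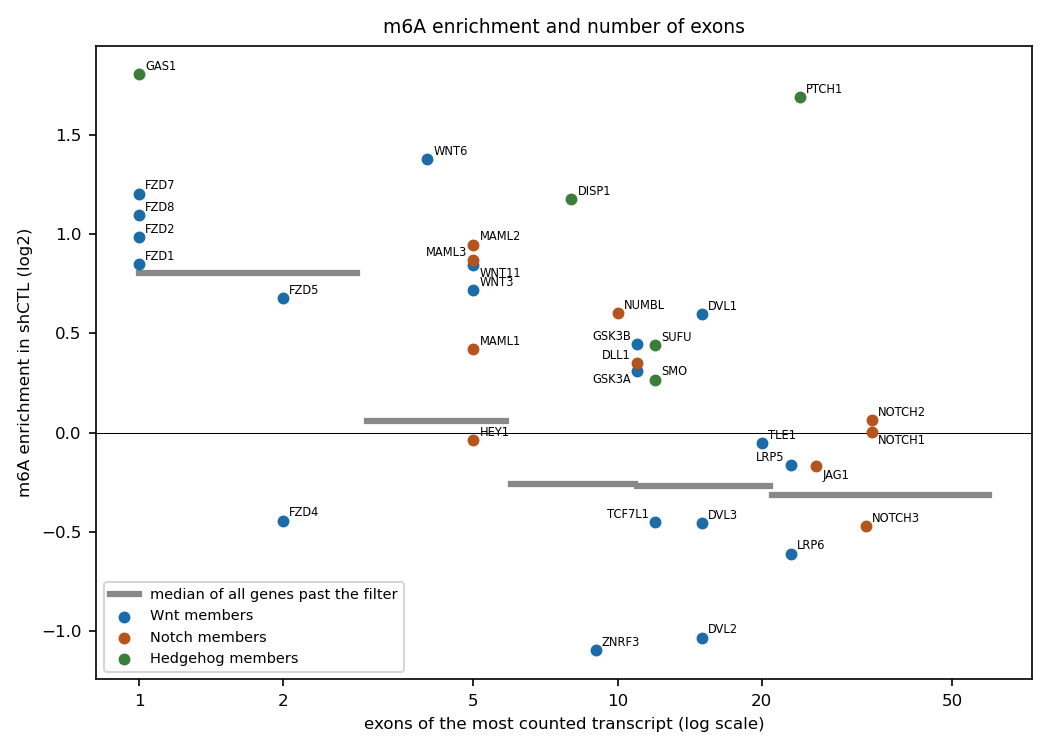
Points are the 34 kept members, by number of exons of the most counted transcript (horizontal, log scale) and m6A enrichment in shCTL (vertical, log2); grey bars are the medians of all genes with 1 to 2, 3 to 5, 6 to 10, 11 to 20 and 21 or more exons. The 6 kept Frizzled genes and GAS1 have 1 or 2 exons, and PTCH1 is the only member with over 20 exons and an enrichment above 1.

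Input RNA of the members was lower in shA5 more often than higher. Of 34 kept members, 7 were at least 1.5-fold lower in the shA5 input (20.6%, against 6.43% of all genes) and 0 were at least 1.5-fold higher (against 3.44%). The 7 were WNT3, WNT6, WNT11, ZNRF3, DVL1, NOTCH3 and SUFU. The median difference was -0.24 on the log2 scale over the members and -0.020 over all genes. The difference was below 0 in 27 of 34 members and in 2793 of 5320 genes. At a 2-fold threshold 1 member, WNT6, was lower, against 1.15% of all genes. Leaving out WNT3 and WNT6 by a minimum mean of 50 counts over the inputs, chosen after the data were seen, left 5 of 32 members lower, against 5.11% of all genes. With a mean of 10 counts or more, 7 of 45 members were lower (against 12.5% of all genes) and 4 higher (against 9.32%). With no minimum, 13 of 59 members were lower, against 19.9% of all genes, a share near that of genes in general. The members' median was -0.17 with the minimum over the inputs, -0.17 with a mean of 10 counts or more and -0.18 with no minimum. That of all genes was -0.015, -0.016 and 0 in the same order.

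The 3 Wnt ligands among the kept members were lower in the shA5 input, and of these WNT11 alone passes a minimum set on the inputs. WNT3 had 28.6 CPM in the shCTL input and 15.3 CPM in the shA5 input, a log2 difference of -0.89 (-1.71 to -0.16). WNT11 had 43.3 and 23.6 CPM, a difference of -0.86 (-1.51 to -0.28). WNT6 had 13.0 and 6.10 CPM, a difference of -1.03 whose interval (-2.43 to 0.08) includes 0. The difference was not below 0 in the other 2 Wnt ligands past the minimum, which are outside the members. WNT3A had 43.3 and 44.2 CPM (0.03, interval -0.47 to 0.51), and WNT9A, named after its values were seen, had 14.3 and 19.8 CPM (0.46, interval -0.33 to 1.26). With 32 and 26 input counts, WNT9A passed the minimum through its m6A-IP counts, as WNT3 and WNT6 did. Wnt ligands under the minimum had at most 12 input counts in either population and lay on both sides, for example WNT5A with 12 in shCTL and 11 in shA5 and, named after its values were seen, WNT7B with 9 and 0. Of the 6 kept Frizzled receptors, FZD2 (-0.45, interval -0.86 to -0.04) and FZD4 (-0.46, interval -0.89 to -0.05) had differences whose intervals lie below 0. The other 4 ran from -0.15 for FZD7 (-0.34 to 0.05) to -0.02 for FZD8 (-0.22 to 0.18), with intervals that include 0. The intervals of all 6 receptors overlap that of WNT3, and those of all but FZD8 overlap that of WNT11.

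NOTCH3 had the most counts of the 7 members. It had 345 CPM in the shCTL input and 185 CPM in the shA5 input, a difference of -0.90 (-1.12 to -0.69). Its paralogues were also lower but less so, NOTCH1 by -0.36 (-0.50 to -0.23) and NOTCH2 by -0.15 (-0.26 to -0.05), and the interval of NOTCH3 did not overlap theirs. SUFU, the inhibitor of GLI factors, had 95.6 and 54.9 CPM, a difference of -0.79 (-1.21 to -0.41). ZNRF3 had 40.7 and 24.4 CPM, a difference of -0.73 (-1.37 to -0.14). DVL1 had 107 and 68.6 CPM, a difference of -0.64 (-1.01 to -0.29), while DVL2 (0.18, interval -0.24 to 0.60) and DVL3 (-0.05, interval -0.32 to 0.21) were near 0. With the relation to GC content removed, DVL1 was no longer among the lower members and the other 6 were. The member with the largest difference upward was MAML1, with 474 and 608 CPM (0.36, interval 0.22 to 0.49), followed by DISP1 with 48.3 and 56.4 CPM (0.22, interval -0.22 to 0.67).

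In the m6A-IP libraries, 4 of 34 members were at least 1.5-fold lower in shA5 (FZD4, NOTCH3, WNT11 and WNT6, against 4.89% of all genes) and 0 were higher (against 2.58%). NOTCH3, WNT11 and WNT6 were thus lower in both kinds of library, though the input interval of WNT6 includes 0. With the minimum over the inputs, which leaves out WNT6, 3 of 32 members were lower in the m6A-IP, against 4.67% of all genes. With a mean of 10 counts or more, 4 of 45 were lower (against 10.2% of all genes) and 0 higher (against 7.01%). With no minimum, 6 of 59 were lower (against 17.7%) and 4 higher (against 14.5%). At these lower minimums the share of members that were lower was under that of all genes. NOTCH3 had 249 and 145 CPM in the m6A-IP, a difference of -0.78 (-0.95 to -0.62). WNT11 had 78.3 and 49.2 CPM, a difference of -0.66 (-0.96 to -0.39), and WNT6 had 34.5 and 18.4 CPM, a difference of -0.89 (-1.37 to -0.45). Without the 7 members that have over 5% of their 50-base windows in common with other genes on either strand, FZD4 and WNT11 among them, 2 members were lower.

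The change of m6A enrichment is the enrichment in shA5 minus that in shCTL, so a lower input with an equal m6A-IP raises it. It was at least 1.5-fold upward in 3 of 34 members (8.82%, against 5.38% of all genes) and at least 1.5-fold downward in 0 (against 5.09%). The 3 members, SUFU, WNT3 and ZNRF3, were all among those with a lower input. With the minimum over the inputs, which leaves out WNT3, 2 of 32 members were upward, against 4.21% of all genes. With a mean of 10 counts or more, 3 of 45 were upward (against 12.6% of all genes) and 3 downward (against 13.0%). With no minimum, 10 of 59 were upward (against 22.7%) and 6 downward (against 21.4%). At these lower minimums the upward share of the members was under that of all genes. The median change was 0.12 over the members and 0.0036 over all genes, and the change was above 0 in 26 of 34 members and in 2684 of 5320 genes. At a 2-fold threshold no member was changed in either direction, against 0.846% of all genes upward and 0.771% downward.

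SUFU had the largest change, 0.79 (0.35 to 1.24). Its m6A-IP level was 130 CPM in shCTL and 129 CPM in shA5, while its input level was 95.6 and 54.9 CPM, so the m6A-IP levels were nearly equal and the input was lower in shA5. WNT3 had a change of 0.66 (-0.15 to 1.55), with 47.4 and 40.3 CPM in the m6A-IP, and ZNRF3 had one of 0.65 (-0.15 to 1.48), with 18.8 and 17.8 CPM. Both of these intervals include 0, so a change of WNT3 or ZNRF3 was not detectable at this depth. The other members with an interval above 0 had smaller changes: DVL3 with 0.35 (0.02 to 0.68), LRP5 with 0.27 (0.08 to 0.46), NOTCH1 with 0.23 (0.07 to 0.39) and FZD7 with 0.21 (0.0011 to 0.42). DISP1 had the lowest change, -0.53 (-1.03 to -0.03), followed by GSK3A with -0.24 (-0.65 to 0.18) and DVL2 with -0.18 (-0.79 to 0.42). GAS1 and PTCH1, the most enriched members, had changes of 0.06 (-0.22 to 0.34) and 0.10 (-0.40 to 0.62).

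**Figure D4:**
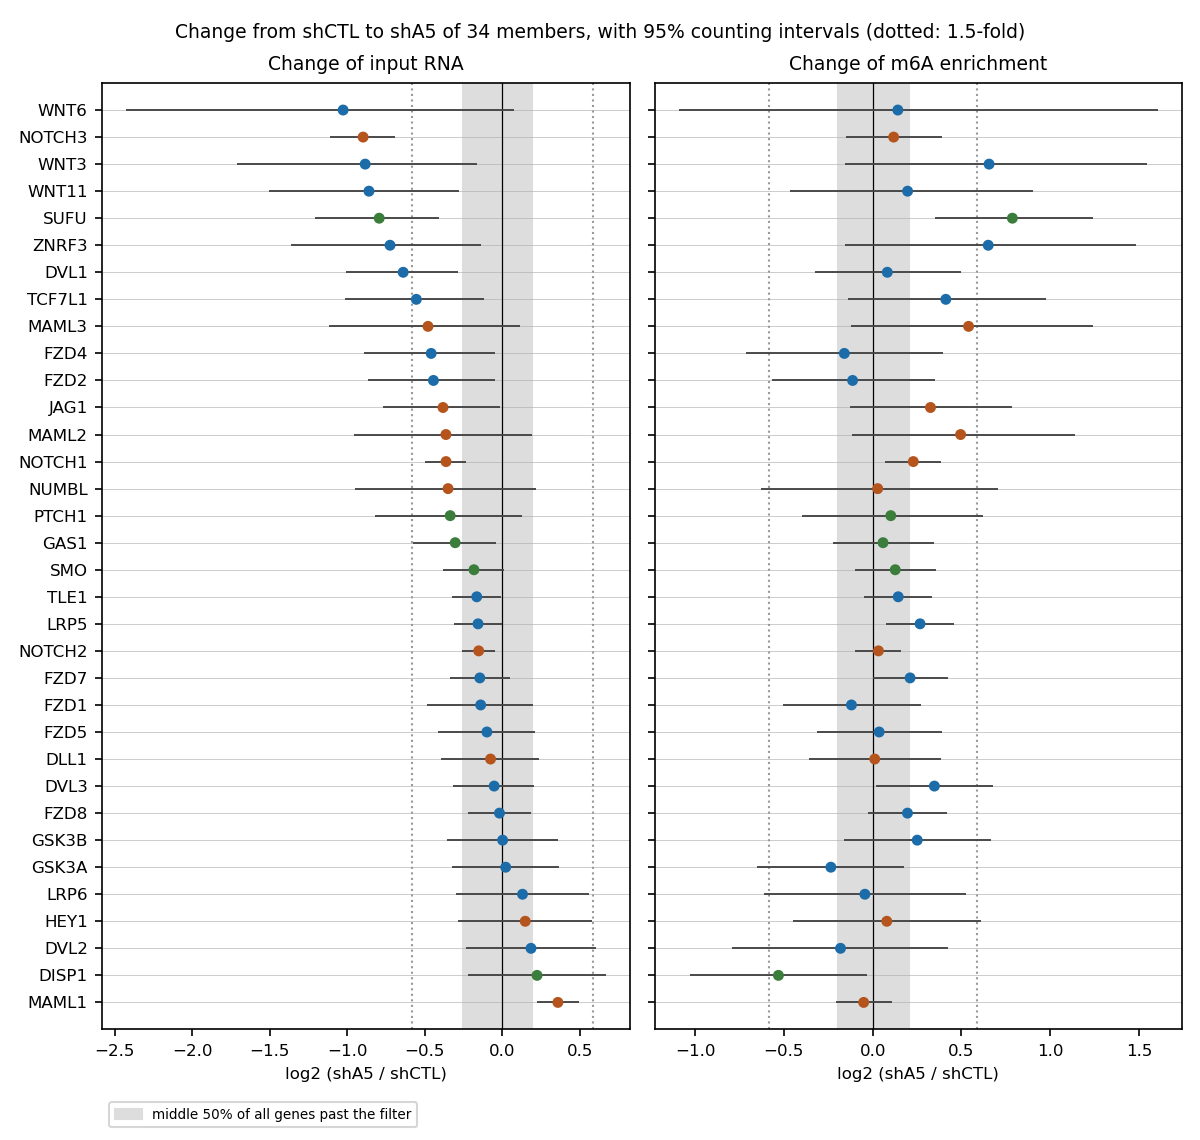
Each row is 1 of the 34 kept members, ordered by change of input RNA; points are log2 ratios of shA5 to shCTL for input RNA (left) and m6A enrichment (right), bars the 95% counting intervals, dotted lines 1.5-fold and the grey band the middle 50% of all 5320 genes; blue is Wnt, orange Notch and green Hedgehog. SUFU is the only member past 1.5-fold in enrichment whose interval is above 0.

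Other genes of the pathways, 121 in a list drawn up from textbook knowledge, were looked at in the same way, and 44 of the 110 that were listed were kept. Of these, 14 were at least 1.5-fold enriched in shCTL (31.8%, against 22.5% of all genes) and 16 in shA5 (36.4%, against 24.3%), with a median enrichment of 0.30 and 0.11. Some of them, such as DISP2 with 34 and 33 input counts, passed the minimum through their m6A-IP counts, and with the minimum over the inputs 12 of 39 were enriched in shCTL (against 19.1% of all genes) and 15 of 39 in shA5 (against 20.8%). With the relation to GC content removed, 6 were enriched in shCTL (against 20.9% of all genes) and 9 in shA5 (against 22.4%). Input RNA was at least 1.5-fold lower in 7 (15.9%, against 6.43% of all genes), with log2 differences of -1.06 for DTX4, -0.78 for HES6, -0.66 for NKD2, -0.83 for SFRP1 and -0.83 for VANGL2 beside ROR1 and ROR2. HES6 and NKD2 were no longer among them with the relation to GC content removed (5 left, against 5.8% of all genes), and with the minimum over the inputs DTX4 was not (6 of 39 left, against 5.11%). Input RNA was at least 1.5-fold higher in 1, DISP2 (0.71, interval -0.0083 to 1.46, against 3.44% of all genes), which the minimum over the inputs leaves out, and the median difference was -0.21. ROR2, a receptor of Wnt ligands outside the beta-catenin branch, had 82 input and 237 m6A-IP counts in shCTL, and 24 input and 168 m6A-IP counts in shA5, an input difference of -0.98 (-1.72 to -0.33). Its relative ROR1 had 77, 205, 24 and 151 counts and an input difference of -0.89 (-1.64 to -0.23). The m6A enrichment of ROR1 was 0.78 higher in shA5 (0.04 to 1.59) and that of ROR2 0.81 higher (0.09 to 1.61), and SFRP1, a secreted Wnt antagonist, was the third gene past 1.5-fold upward (0.63, interval -0.04 to 1.35). These 3 of 44 genes (6.82%) are a share near the 5.38% of all genes. WNT3A, with 97, 263, 58 and 139 counts, was the 1 gene of 44 past 1.5-fold downward (-0.62, interval -1.20 to -0.04), against 5.09% of all genes.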

How the data were processed

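The members and gene lists were chosen with earlier results of these data known. The authors deposited whole-number read counts per Ensembl transcript for each of the 4 libraries. Their methods and the submitters' processing notes name fastp 0.23.2, HISAT2 with hg38 and SAMtools 1.9; the methods name StringTie for gene quantification, and its version, annotation, strand setting and treatment of shared reads are not given in the sources used here. Counts were summed over the transcripts of each gene name, and CPM are per library total. 3 counts, the limit that a count of 0 allows, are 1.34 CPM of input and 0.761 CPM of m6A-IP for shCTL, and 2.29 and 0.953 CPM for shA5, whose input limits precision. Log2 ratios used a pseudocount of 0.5 CPM, genes needed a mean of at least 50 counts, and differences were called at 1.5-fold. Intervals of genes are exact conditional ones (Clopper-Pearson for ratios, conditional odds ratio for changes of enrichment, scipy 1.17.1), computed without the pseudocount. Shared sequence was counted as 50-base windows found in transcripts of other genes. Sequence features come from Gencode v44, which holds 98.1% of the listed transcripts, for the most counted transcript of each gene. Named members are the most counted of each role, the 4 highest and 4 lowest enrichments in shCTL, the 3 largest changes in each direction and every member past 1.5-fold in a change; others were named after their values were seen. Alternatives were TMM factors (edgeR 4.0.16), size factors (DESeq2 1.42.0), pseudocounts, count minimums, the most counted transcript alone and a 2-fold threshold. The calculations were tested on simulated data. No p-value was computed.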

Additional observations from a re-analysis of the deposited data

How the results depend on the processing

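The alternatives were TMM and DESeq2 factors, other pseudocounts and count minimums, the most counted transcript, and those added. Under each, the medians stayed inside an interval of the median over the members. For enrichment in shCTL that interval was -0.037 to 0.85. It is a wide spread over genes and not counting error, so a median inside it can still have moved much. The median enrichment in shCTL ran from 0 with no filter to 0.48 with the most counted transcript. In shA5 it ran from 0.16, with no filter or a mean of 10 counts or more, to 0.63 without members with over 5% shared windows. The median input difference ran from -0.30 without members with over 5% shared windows to -0.16 with a mean of 200 counts or more. A median was counted as held inside its interval, even where it moved by more than 1.5 times, and a count when it moved by at most 1.5 times. By these rules 190 of the recomputed medians and counts held, and 51 counts did not. Higher minimums and a higher fold leave fewer genes to call, and low minimums add genes with few counts. The cause of the other moves was not tested. Percentages in brackets are shares of all genes under the same setting, which also apply to the other pathway genes.

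At a minimum mean of 200 counts (22 members), 9 members were enriched in shCTL (29.1%) and 11 in shA5 (31.0%), 0 (21.7%) and 0 (23.7%) depleted, 1 raised in enrichment (1.65%), 3 lowered in input (3.33%) and 1 lowered in m6A-IP (2.65%). Of the other pathway genes 8 were enriched in shCTL, 0 raised and 0 lowered in enrichment (1.08%), 0 raised (1.08%) and 1 lowered in input.

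At a minimum mean of 10 counts (45 members), 9 members were depleted in shCTL (35.8%) and 9 in shA5 (37.8%), 3 were lowered in enrichment (13.0%) and 4 raised in input (9.32%), shares under those of all genes. Of the 74 other pathway genes 22 were enriched in shCTL (18.9%), 10 raised (12.6%) and 5 lowered in enrichment, 4 raised and 16 lowered in input (12.5%).

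With no filter (59 members), 16 members were depleted in shCTL (36.7%) and 14 in shA5 (37.5%), 10 raised (22.7%) and 6 lowered in enrichment (21.4%), 4 raised (15.3%) and 13 lowered in input (19.9%), and 4 raised in m6A-IP (14.5%). The share lowered in input was there near that of all genes. Of the 110 other pathway genes 27 were enriched in shCTL (21.6%) and 32 in shA5 (24.5%), 23 raised and 18 lowered in enrichment, 15 raised and 29 lowered in input.

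With a 2-fold threshold (34 members), 6 members were enriched in shCTL (10.1%) and 10 in shA5 (12.0%), 1 was depleted in shA5 (18.4%), 0 raised in enrichment (0.846%), 1 lowered in input (1.15%) and 0 lowered in m6A-IP (0.545%). Of the other pathway genes 1 was enriched in shCTL and 6 in shA5, 0 raised and 0 lowered in enrichment (0.771%), 0 raised (0.47%) and 1 lowered in input.

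Removal of the trend on GC content, a minimum over the inputs alone, leaving out members with over 5% of their 50-base windows shared with other genes, and the m6A-IP change as a measure were chosen after seeing the data. With the GC trend removed, 5 members were depleted in shCTL (29.6%), and 6 of the other pathway genes were enriched in shCTL (20.9%) and 9 in shA5 (22.4%). The enrichment of DVL1 changed sign, to -0.049 in shCTL and -0.074 in shA5. With the minimum over the inputs, 0 of the other pathway genes were raised in input (2.71%). Without members over that 5%, 2 of 27 members were lowered in m6A-IP (4.89%). Of 912 recomputed values of named genes, 890 stayed inside their counting interval. The 2 of DVL1 and 20 others lay outside it, both of DVL1 and 19 of the others with the GC trend removed. Among the 20, the enrichment of GSK3A went to -0.0083 in shCTL and -0.28 in shA5 and that of TLE1 in shA5 to -0.16, signs opposite to those reported, for values under 1.5-fold. Settings that change only the count minimum or leave out members do not alter the value of a gene, so their values could not move. These were 88 values with a mean of 10 counts or more, 60 with 200 or more and 88 with no filter. A further 80 came from the minimum over the inputs and 68 from leaving out members with over 5% shared windows.

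No paired analysis was possible because 1 library was made per group, and leaving out a library would leave its group empty. The shA5 input, the shallowest library, limits the precision of the changes of input RNA and of m6A enrichment.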
